A study of Mus musculus with 30 samples.

Results

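Spink1, Wfdc21 and Slpi encode small secreted proteins of the protease inhibitor families, and their transcripts were followed in the liver and the subcutaneous fat of mice with altered growth hormone receptors. The 3 genes, of 19406 named on the arrays, were found by their symbol in the platform annotation, and each was measured by 1 of the 46643 probes. They were chosen by the size of the change of Spink1 and Wfdc21 in mutant liver, so the liver values of the mutants against wild type are a description and carry no test. The samples were 569 (the receptor cut short at amino acid 569), 391 (cut short at amino acid 391), Box1 (mutated in the Box1 region), KO (no receptor) and wild type (WT), each with 3 arrays of liver and 3 of fat. All mice were male and 4 months old and had been fasted overnight before the tissues were taken. The labels call the mutants knock-in or transgenic mice and describe no tissue limit to the change. They give no strain. They also do not state that the arrays come from different animals, and the p-values therefore reflect the spread among these arrays alone, which may be technical.

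Spink1 is a Kazal-type inhibitor of trypsin, best known as the protein that pancreatic acinar cells secrete alongside trypsinogen to keep early trypsin activity in check. Wfdc21 and Slpi belong to the WAP family, whose members share a disulphide-rich whey acidic protein fold. Slpi, made by mucosal epithelia, neutrophils and macrophages, inhibits neutrophil elastase and cathepsin G. Wfdc21, also called Wdnm1-like, has been described in the mouse as a product of adipocytes, and its target protease is less well defined. The growth hormone receptor binds the kinase JAK2 through Box1 and docks the transcription factor STAT5 on tyrosines further along its tail. In the liver this route drives Igf1 and many sex-biased genes.

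The deposited value of a probe is its ratio to the median of the same probe over the 15 arrays of a tissue, so a ratio of 1 is the middle array and no absolute level remains. Neither 2 probes nor the 2 tissues can be compared in level, and signal over background is unknown. Differences are given as log2 with their SE from a limma fit over the 5 genotypes of a tissue, and a probe or gene is called changed at an adjusted p under 0.05 over all 46643 probes. WT and 569 arrays of a tissue shared a slide, as did 391 and KO arrays, while the Box1 arrays of both tissues lay on another. For every comparison other than 569 with WT and KO with 391, slide and genotype cannot be told apart. Igf1, the liver's main growth hormone target, fell in 391, Box1 and KO livers, with differences of -5.31, -5.30 and -4.39 (each adjusted p at or under 1.17e-09), and differed by -0.55 in 569 livers (adjusted p = 0.518). One Ghr probe differed from WT by -2.05 in Box1 livers (adjusted p = 0.000205) and by 0.23 in KO livers (adjusted p = 0.776). A second Ghr probe passed in no liver comparison, and where either probe lies relative to the altered parts of the gene is not known.

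Several arrays held transcripts of other tissues. Of 16 markers of pancreatic acinar cells, 14 lay more than 1 log2 unit above the liver median in 391 replicate 2 and 12 in 391 replicate 3. Their summed ratios were 342.07 and 125.05 there, against 15.86 in 391 replicate 1 and 15.02 to 18.48 over the other 12 liver arrays, none of which had a marker that high. The same 391 replicate 2 also had 5 of 7 skeletal muscle markers that high, with a sum of 153.63, against 6.58 to 7.4 in the other livers. In fat, 5 of 7 hepatocyte markers lay that far above the median in Box1 replicate 2 and 4 of 7 in WT replicate 2, with sums of 112.12 and 35.62, against 5.27 to 12.68 elsewhere. Of 13 biliary and other epithelial markers, 7 lay that high in the same WT replicate 2 and 1 in 569 replicate 2 of fat. Their sums were 27.35 and 21.18 there, against 12.39 to 13.49 in the other fat arrays. The 7 muscle markers summed to 159.6 and 303.45 in 569 replicates 1 and 3, to 133.68 in Box1 replicate 3 and to 82.66 in KO replicate 2 of fat, against 1.86 to 20.05 in the other mutant and 1.95 to 2.51 in the WT arrays. In 569 replicate 3 all 7 adipocyte markers lay more than 1 log2 unit below the fat median, with a sum of 1.53, against 5.68 to 10.76 elsewhere. The 6 lymphocyte markers summed to 1.31 to 1.83 in 7 fat arrays (all of 569, Box1 replicate 3, KO replicates 2 and 3, WT replicate 2), against 6.06 to 11.88 in the other 8. The part of these transcripts in the members' values was not tested beyond refits without the arrays.

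Spink1 was low in every liver with a 569 or WT receptor and high in every liver of the other 3 genotypes. Its ratios were 0.07, 0.05 and 0.06 in 569 livers. They were 1.03, 3.11 and 1.37 in 391 livers, and 1.21, 1.60 and 1.33 in Box1 livers. They were 0.50, 1.0 and 1.25 in KO livers, against 0.05, 0.05 and 0.04 in WT livers. The lowest array of the 391, Box1 and KO livers, KO replicate 1 at 0.50, lay above the highest of the 569 and WT livers, 569 replicate 1 at 0.07. The fitted difference from WT was 5.14 ± 0.35 in 391 livers, or 35.3-fold, 4.88 ± 0.35 in Box1 livers, or 29.5-fold, and 4.20 ± 0.35 in KO livers, or 18.4-fold (n = 3 per group). In 569 livers it was 0.36 ± 0.35, with overlapping arrays. Quantile normalization gave smaller Spink1 differences of 3.54 in 391, 3.51 in Box1 and 2.77 in KO livers. Among the 19406 genes, the main differences were the 4th highest in 391, the 5th highest in Box1 and the 4th highest in KO livers. The ratios carry 2 decimals, so the WT values near 0.05 are coarse and the folds with them.

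**Figure D1:**
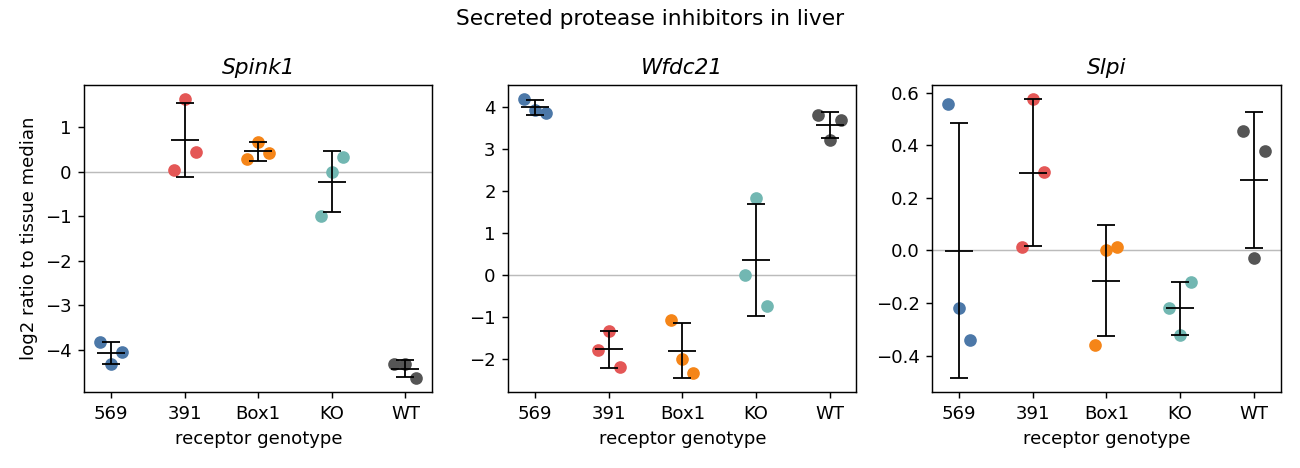
Log2 ratio to the liver median of Spink1, Wfdc21 and Slpi by receptor genotype. Each point is 1 array, and the black bar and whiskers are the mean and SD of 3 arrays. Spink1 was lowest in the 569 and WT livers, where Wfdc21 was highest, and Slpi spanned less than 1 log2 unit.

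Spink1 is itself an acinar product, and the 391 array with the highest Spink1 ratio, replicate 2 at 3.11, was also that with the highest sum of pancreatic markers. Without both 391 arrays that held pancreatic transcripts, the 391 difference in Spink1 was 4.47. The remaining 391 array, with a marker sum inside the range of the other livers, had a Spink1 ratio of 1.03, above all 3 WT and all 3 569 livers. The Box1 and KO livers, all above WT in Spink1, had no pancreatic marker more than 1 log2 unit above the liver median. The 391 value without both arrays rests on 1 array, and the part of pancreatic transcripts in the Spink1 ratios was not tested. In these bulk samples, more cells of a type and more RNA per cell cannot be told apart.

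**Figure D2:**
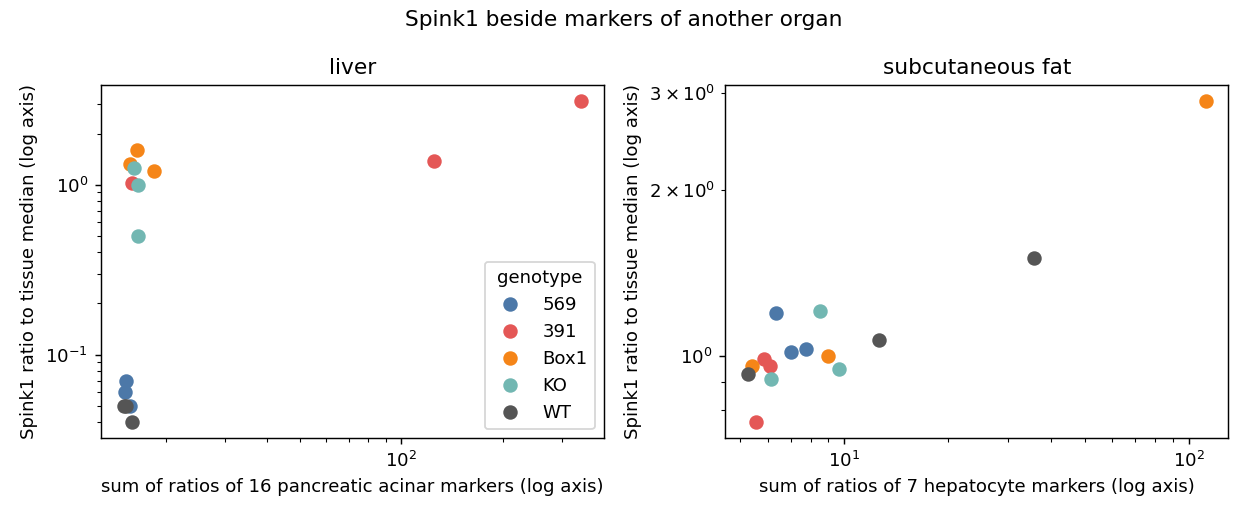
Spink1 ratio of each array against the summed ratios of 16 pancreatic acinar markers in liver (left) and of 7 hepatocyte markers in fat (right), on log axes, coloured by genotype. Only 2 of the 391 livers, at 342.07 and 125.05, stand apart in the pancreatic sum, while the Box1 livers, at 1.21 to 1.60, and 2 of the KO livers lie close to the third 391 liver at 1.03. In fat the arrays with the highest hepatocyte sums, Box1 replicate 2 and WT replicate 2, were also the highest in Spink1.

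Among the 3 genotypes with high Spink1, no difference passed the test. The choice of Spink1 and Wfdc21 used values of these same livers. The p-values between these genotypes are therefore not independent of that choice. KO minus 391, made within a slide, was -0.94 (95% interval -1.67 to -0.20, limma adjusted p = 0.4474), and -0.27 (adjusted p = 0.899) without both 391 arrays with pancreatic transcripts. KO minus Box1 was -0.68 (-1.42 to 0.05, adjusted p = 0.6119), and 391 minus Box1 was 0.26 (-0.48 to 0.99, adjusted p = 0.9589), which became -0.41 without the same arrays (adjusted p = 0.925). Of all probes, 0.18% were called in KO minus 391, 0.148% in KO minus Box1 and 0.00429% in 391 minus Box1. A p that misses the threshold does not show that these genotypes had equal Spink1.

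Wfdc21 ran the other way. It had ratios of 18.21, 15.23 and 14.46 in 569 livers. The ratios were 0.29, 0.40 and 0.22 in 391 livers and 0.48, 0.25 and 0.20 in Box1 livers. In KO livers they were 1.0, 3.58 and 0.60, against 13.98, 9.32 and 12.92 in WT livers. The 9 livers of 391, Box1 and KO mice all lay below the 6 livers of 569 and WT mice, and the 569 arrays lay above all 3 WT arrays. The fitted difference from WT was -5.34 ± 0.48 in 391 livers, 40.4-fold lower, and -5.37 ± 0.48 in Box1 livers, 41.2-fold lower. It was -3.20 ± 0.48 in KO livers, 9.22-fold lower, and 0.42 ± 0.48 in 569 livers. With quantile normalization the KO value was -2.50. By size of fall it stood 5th of the 19406 genes in 391, 4th in Box1 and 12th in KO livers.

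The KO livers had higher Wfdc21 ratios than the 391 and Box1 livers in every array: the lowest KO ratio was 0.60, and the highest was 0.40 in 391 and 0.48 in Box1 livers. KO minus 391 was 2.13 (95% interval 1.12 to 3.15), or 4.38-fold, and did not pass over all probes (limma adjusted p = 0.1138). KO minus Box1 was 2.16 (1.15 to 3.18, adjusted p = 0.1047). Among the 19406 genes these were the 4th and the 6th highest differences of their comparisons. The choice of Wfdc21 used values of these livers, so the p-values are not independent of it. Single KO arrays moved the differences. Without replicate 2, at 3.58, KO minus 391 was 1.40 (adjusted p = 0.226) and KO minus Box1 was 1.43 (adjusted p = 0.245). Without replicate 3, the lowest, they were 2.68 (adjusted p = 0.0296) and 2.71 (adjusted p = 0.0206). With robust moderation the adjusted p was 0.258 and 0.25, with the compared groups alone 0.423 and 0.103, and quantile normalization gave 3.21 for KO minus Box1 (adjusted p = 0.0223). Between the 391 and Box1 livers the difference was 0.03 (-0.99 to 1.04, adjusted p = 0.9968).

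**Figure D3:**
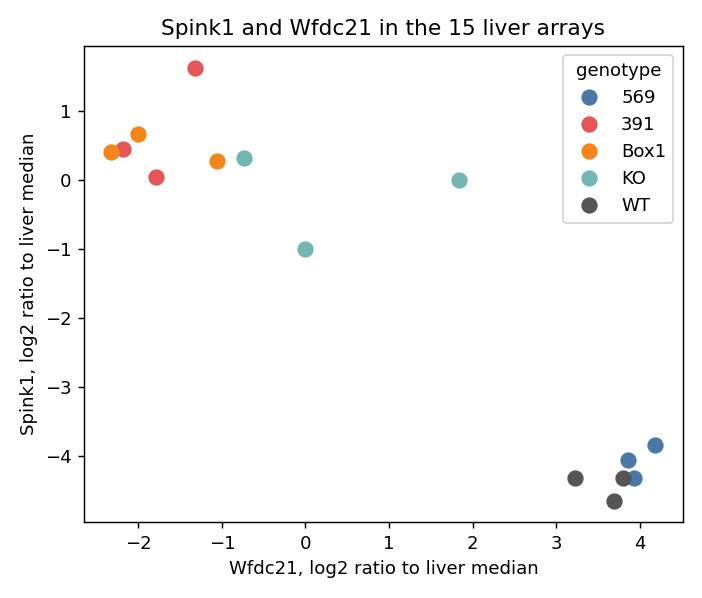
Log2 ratio of Spink1 against that of Wfdc21 in the 15 liver arrays, coloured by genotype. The 569 and WT livers sit together at high Wfdc21 and low Spink1, the 391 and Box1 livers at the opposite corner, and the KO livers lie between them on the Wfdc21 axis.

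Across the 15 livers the Pearson correlation of Spink1 with Wfdc21 was -0.93 (Spearman -0.82), given as a description, since the arrays share their genotypes and slides. After each genotype's mean was removed it was 0.11. Both genes were chosen for a strong change in the same mutant livers, so a strong correlation between genotypes comes with that choice. KO replicate 2, the KO array with the most Wfdc21 at 3.58, had a Spink1 ratio of 1.0, in the middle of its group.

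Slpi did not share this pattern. Its liver ratios were 1.47, 0.86 and 0.79 in 569, 1.01, 1.49 and 1.23 in 391, and 0.78, 1.0 and 1.01 in Box1 mice. They were 0.86, 0.80 and 0.92 in KO mice, against 1.37, 0.98 and 1.30 in WT mice. All groups overlapped WT but KO, whose highest array, 0.92, lay just below the lowest WT array, 0.98. The differences from WT were -0.27 in 569, 0.03 in 391, -0.38 in Box1 and -0.49 in KO livers, each ± 0.21, and without both 391 arrays with pancreatic transcripts the 391 value was -0.25. KO minus 391 was -0.52 (95% interval -0.96 to -0.08, limma adjusted p = 0.5118), with no overlap of the arrays, and -0.23 (adjusted p = 0.883) without both of those 391 arrays. KO minus Box1 was -0.11 (adjusted p = 0.9328), and 391 minus Box1 was 0.41 (-0.03 to 0.85, adjusted p = 0.8352), or 0.13 (adjusted p = 0.983) without them. Its correlations over the livers were -0.11 with Spink1 and 0.08 with Wfdc21.

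Of the 3 genes, Slpi was matched in the RefSeq table of promoters, and the window of 300 bases around the gene's start is shown because liver acute phase genes are commonly reached through STAT and C/EBP factors. In build GRCm38.p6 it lies at chr2:164356458-164356757 on the minus strand. It was searched on both strands for TTCNNNGAA, the core letters of STAT sites, and TTGCNNAA, those of C/EBP sites, which do not overlap each other here. No STAT letters were found. The C/EBP letters, read from the opposite strand, occurred once and are in capitals.
Slpi: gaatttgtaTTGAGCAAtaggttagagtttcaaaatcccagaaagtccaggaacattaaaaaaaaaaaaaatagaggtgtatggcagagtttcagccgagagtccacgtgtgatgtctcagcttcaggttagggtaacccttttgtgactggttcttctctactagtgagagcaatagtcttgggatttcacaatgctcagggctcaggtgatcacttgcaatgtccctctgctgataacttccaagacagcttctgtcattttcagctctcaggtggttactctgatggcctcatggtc
Of 32851 promoter windows in that table, 8.298% held the STAT letters and 10.797% the C/EBP letters. A match is a description of letters and not a bound site.

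The genes most like each member over the livers were named among those with an SD of at least 0.5 on the log2 scale. For Spink1 (590 genes compared) they were Rcan2, a calcineurin regulator (Pearson r = 0.976), the sulfotransferases Sult2a2 (0.976) and Sult2a1 (0.962), lipoprotein lipase, Lpl (0.970), and the hepcidin gene Hamp2 (0.959). All 5 had their lowest group means in 569 and WT livers. For Wfdc21 they were the complement genes C8b (0.968) and C8a (0.960), Urad of urate breakdown (0.961), Igf1 (0.955) and the carboxylesterase Ces3b (0.951). Slpi had weaker matches. They were Rnf125 (0.797), a ubiquitin ligase, Fgf21 (0.676), a fasting hormone, the clock gene Arntl (0.646), Camk2b (0.636) and Ly6d (0.634).

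Spink1 itself carries no test against WT in liver, and the other Kazal genes held no call. Of 18 other measured genes with Kazal domains, among them 10 further Spink genes, none was called in 569, 391, Box1 or KO livers. The share called up over all genes was 0% in 569, 2.47% in 391, 1.62% in Box1 and 2.43% in KO livers, and the share called down was 0.0155%, 0.711%, 0.484% and 0.871% in that order. The median differences of the list were -0.02, 0.06, 0.04 and 0.06, beside medians over all genes of -0.03, 0.04, 0.04 and 0.03. The farthest from WT was Fst, follistatin, at 0.51 in 391 livers. At these shares a list of 18 genes may hold no call, so the count does not set Spink1 apart from its family. The comparisons share their WT arrays, so their counts are not independent of each other.

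Among 15 measured WAP family genes apart from Wfdc21 and Slpi, 1 was called, and it fell. Over all genes the share called down was 0.711% in 391 and 0.871% in KO livers. Wfdc2, an epithelial WAP protein also known as HE4, averaged 0.02 ± 0.24 log2 in 391 and -0.37 ± 0.25 in KO livers, against 1.55 ± 0.34 in WT livers (SD, n = 3 each). Its differences were -1.53 ± 0.31 in 391 (limma adjusted p = 0.0207) and -1.92 ± 0.31 in KO livers (adjusted p = 0.00417). In Box1 livers it was -1.33 (adjusted p = 0.0506) and in 569 livers -1.33 (adjusted p = 0.265), where none of the arrays overlapped WT. The KO call of Wfdc2 held in all 6 refits that left out 1 array. The 391 call was lost in 4, with adjusted p between 0.0505 without 391 replicate 2 and 0.0815 without WT replicate 3, and also without 391 replicate 3 (0.0509) or WT replicate 1 (0.0629). Without both 391 arrays with pancreatic transcripts the 391 difference in Wfdc2 was -1.25 (adjusted p = 0.188). The median difference of the WAP list was -0.09 in 569, -0.09 in 391, -0.06 in Box1 and -0.01 in KO livers.

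**Figure D4:**
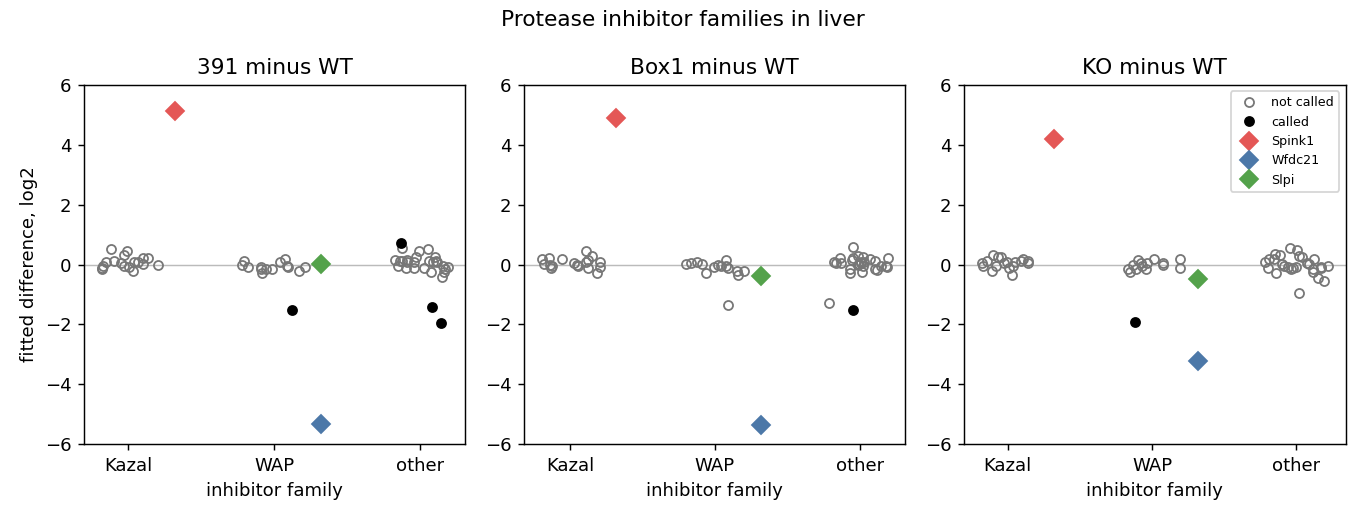
Fitted log2 difference from WT in 391, Box1 and KO livers for the measured genes of the Kazal family, the WAP family and other secreted protease inhibitors. Filled circles passed an adjusted p of 0.05 and open circles did not, while diamonds mark Spink1, Wfdc21 and Slpi, for which no test is given. Spink1 and Wfdc21 lie at 5.14 and -5.34 in the 391 panel, beyond every other gene shown there.

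Of 28 other secreted inhibitors measured (metalloproteinase inhibitors, cystatins, macroglobulins, clade C to I serpins and Kunitz proteins), none was called in 569 or KO livers, 3 in 391 and 1 in Box1 livers. Over all genes 2.47% were called up and 0.711% down in 391 livers, and 1.62% and 0.484% in Box1 livers. The murinoglobulin Mug1, a broad plasma inhibitor of the macroglobulin family, fell by 1.42 in 391 (adjusted p = 0.00561) and by 1.5 in Box1 livers (adjusted p = 0.00395). Its difference in KO livers was -0.55 (adjusted p = 0.327). The Mug1 calls held in every refit that left out 1 array, but that in 391 was lost when the compared groups alone were fitted (adjusted p = 0.0894). For Mug1, 1 of its 2 other probes gave the same call in both comparisons. Mug2, its close paralogue, fell by 1.96 in 391 livers (adjusted p = 0.0376), a call lost whichever WT array was left out (adjusted p between 0.0805 and 0.132). The Mug2 call was also lost with the compared groups alone (adjusted p = 0.253) and with robust moderation (0.0997). The other Mug2 probe gave -0.05. Near-identical copies may share a probe, so the copy measured by a probe is uncertain. Timp3, a matrix-bound metalloproteinase inhibitor, was higher by 0.73 in 391 livers (adjusted p = 0.03) on 1 of its 2 probes, and this call was lost without WT replicate 2 or 3 or 391 replicate 1 or 2 (adjusted p between 0.0794 and 0.134). It was also lost with the compared groups alone (adjusted p = 0.161).

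The proteases that Slpi inhibits were not called in any liver comparison with WT. Elane, neutrophil elastase, differed from WT by 0.00 in 569, -0.02 in 391, 0.03 in Box1 and -0.06 in KO livers. Ctsg, cathepsin G, differed by 0.06 in 391 and Box1 and by 0.10 in KO livers. A ratio cannot show whether these transcripts were present in liver at all. Of 21 target proteases and receptors measured, 2 were called in 391, 1 in Box1 and 4 in KO livers, and none in 569 livers. The median difference of this list was 0.48 in 391, against 0.06 in Box1, 0.01 in KO and 0.03 in 569 livers. Unadjusted limma p under 0.05 was reached by 13 of the 21 in 391, 5 in Box1, 5 in KO and 2 in 569 livers. Of all 19406 genes, 3432, 3272, 3493 and 1928 reached it in that order. Over all genes 2.47% were called up and 0.711% down in 391 livers. The shares were 1.62% and 0.484% in Box1 and 2.43% and 0.871% in KO livers. Tmprss2, a membrane-anchored serine protease, rose by 1.40 ± 0.15 in 391 (adjusted p = 0.00015), 1.04 in Box1 (adjusted p = 0.00247) and 1.07 in KO livers (adjusted p = 0.00136), and kept its calls in all refits that left out 1 array and without both 391 arrays with pancreatic transcripts. In the same livers 391 replicate 2 and replicate 3 carried the pancreatic digestive enzymes: the list's chymotrypsin gene Ctrb1 averaged 3.63 above WT in 391 livers and 0.44 above WT in Box1 livers, and was not called.

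St14, matriptase, rose in KO livers by 1.51 ± 0.19 (adjusted p = 0.000474), on 1 of its 3 probes. Egfr, the epidermal growth factor receptor, to which SPINK1 has been reported to bind in human cells, fell by 2.51 in 391 (adjusted p = 0.0204) and by 2.38 in KO livers (adjusted p = 0.0254), and differed by -2.15 in Box1 livers (adjusted p = 0.054). Of 5 Egfr probes, that with the largest SD gave these values. Another, chosen after its values were seen, gave -3.01, -2.91 and -2.98 in 391, Box1 and KO livers, with adjusted p of 1.45e-07, 2.16e-07 and 1.92e-07, while 2 others passed in none of the 3. The remaining probe gave -1.57 in 391 (limma adjusted p = 0.104), -1.63 in Box1 (0.103) and -1.86 in KO livers (0.0485), and so passed in KO alone. The 391 call of the main Egfr probe was lost without 391 replicate 2 (adjusted p = 0.0593), without both 391 arrays with pancreatic transcripts (0.112), with the compared groups alone (0.203) and with robust moderation (0.0685). Its 391 value ranged from -3.27 without WT replicate 2 to -1.73 without WT replicate 3. Its KO call was lost without WT replicate 1 or 3 or any KO array (adjusted p between 0.0514 and 0.104). The compared groups alone (0.0757) and robust moderation (0.081) ended the KO call too. Tmprss6, matriptase-2, also fell in KO livers, by 0.68 (adjusted p = 0.0333), and is named here after its values were seen.

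Spink1 is inducible by interleukin-6 in human liver cells, and Slpi and Wfdc21 respond to inflammatory stimuli in other cells, so acute phase genes and the STAT3 and NF-kB route were counted beside them. Of 27 acute phase genes measured, 7 rose in 391, 7 in Box1 and 5 in KO livers, and none was called in 569 livers. Crp fell in KO livers by 0.60 (adjusted p = 0.0432, named after its values were seen). Over all genes 2.47%, 1.62% and 2.43% were called up in 391, Box1 and KO livers. The list was shifted in 569 livers too, with a median difference of 0.41, against 0.39 in 391, 0.42 in Box1 and 0.23 in KO livers. The 569 median over all genes was -0.03. Unadjusted limma p under 0.05 was reached by 14 of the 27 genes in 569, 14 in 391, 13 in Box1 and 11 in KO livers. In 569 livers the lowest adjusted p was 0.0508. Mt1, a metallothionein, rose by 3.46 in 391 (adjusted p = 0.000742), 2.88 in Box1 (adjusted p = 0.00356) and 3.42 in KO livers (adjusted p = 0.000683). Mt2, another metallothionein, rose by 2.59 in 391 (adjusted p = 0.00601) and 2.16 in KO livers (adjusted p = 0.0175). In Box1 livers it differed by 1.42 (adjusted p = 0.146). The Mt2 call in KO livers was lost in 5 of 6 refits that left out 1 array (adjusted p between 0.0542 and 0.0799). Robust moderation also ended it (adjusted p = 0.058). The antiproteinase serpin Serpina3n rose by 1.78 in 391 (adjusted p = 0.000635), 1.61 in Box1 (adjusted p = 0.00161) and 1.48 in KO livers (adjusted p = 0.00222). The acute phase proteins Lcn2 and Saa1 rose in 391 livers, by 3.86 (adjusted p = 0.0201) and 3.32 (adjusted p = 0.0468), and in Box1 livers, by 3.36 (adjusted p = 0.0493) and 3.81 (adjusted p = 0.0295). In Box1 livers each of the 6 refits that left out 1 array ended both calls (adjusted p between 0.0514 and 0.192). In 391 livers the Lcn2 call was lost without WT replicate 2 or 3 or 391 replicate 1 or 2 (adjusted p between 0.0618 and 0.0755), and the Saa1 call in every refit except that without 391 replicate 3 (adjusted p between 0.0918 and 0.181). Both 391 calls were also lost with quantile normalization (0.0584 and 0.156), the compared groups alone (0.0867 and 0.143) and robust moderation (0.0772 and 0.139). In 569 livers, which had low Spink1 and high Wfdc21, Saa1 was 4.28 above WT with no overlap of arrays and did not pass (adjusted p = 0.173).

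Of 22 genes of STAT3 and NF-kB signalling, 2 rose and 1 fell in 391, 4 rose in Box1, 3 rose in KO livers, and none was called in 569 livers. Over all genes the shares called up were 2.47% in 391, 1.62% in Box1 and 2.43% in KO livers, and 0.711% were called down in 391 livers. Il6ra, the interleukin-6 receptor, rose by 1.10 in 391 (adjusted p = 0.000899), 1.76 in Box1 (adjusted p = 5.69e-06) and 1.59 in KO livers (adjusted p = 1.66e-05). These are from the most variable of 5 Il6ra probes. Another passed in all 3 genotypes, and the other 3 passed in none. The 391 call was lost with the compared groups alone (adjusted p = 0.0517). Stat3 rose by 0.86 in 391 (adjusted p = 0.00434), 1.0 in Box1 (adjusted p = 0.00139) and 0.71 in KO livers (adjusted p = 0.0135). The Stat3 call in KO livers was lost without WT replicate 2 or 3 or KO replicate 2 or 3 (adjusted p between 0.0507 and 0.0729), while those of 391 and Box1 were kept in all such refits. Tnfaip3, a brake on NF-kB, rose by 0.72 in Box1 (adjusted p = 0.00665) and by 0.58 in KO livers (adjusted p = 0.0192), a KO call lost when any of the same 4 arrays was left out (adjusted p between 0.0674 and 0.104). Bcl3, an NF-kB cofactor, fell by 0.60 in 391 livers (adjusted p = 0.0388), a call lost without WT replicate 1 or 2 or 391 replicate 1 or 2 (adjusted p between 0.0895 and 0.178). The compared groups alone ended the Bcl3 call too (adjusted p = 0.163). Jak2 rose by 0.64 in Box1 livers (adjusted p = 0.0173, named after its values were seen). Socs3, a STAT3 target, was not called, with -0.40 in 391, -0.44 in Box1 and -0.75 in KO livers (adjusted p = 0.494, 0.431 and 0.0968). Macrophage markers summed higher in every KO than in every WT liver. Of 10 measured, 1 was called, Timd4 of resident macrophages, which rose by 0.96 (adjusted p = 0.00308, named after its values were seen), with a list median of 0.44. Their sums were 9.44 to 9.85 in 569, 7.97 to 12.53 in 391, 9.38 to 13.33 in Box1 and 11.99 to 14.5 in KO livers, against 9.15 to 9.48 in WT livers, and their part in the changes of these lists was not tested.

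Genes next to the members were not called. In RefSeq order, 13 of the 18 protein-coding genes within 3 places of Spink1, Wfdc21 or Slpi were measured, and none was called in 391, Box1 or KO livers. Over all genes 2.47% were called up and 0.711% down in 391 livers. The shares were 1.62% and 0.484% in Box1 and 2.43% and 0.871% in KO livers. At such shares 13 genes may hold no call, so the count says little about these places. Spink5, a Kazal inhibitor of skin proteases near Spink1, differed by 0.08, 0.19 and 0.25 in those 3 genotypes. Wfdc18, the WAP gene beside Wfdc21, differed by -0.16, 0.00 and -0.04. Sdc4, a syndecan near Slpi, differed by 0.15, 0.33 and 0.00.

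In subcutaneous fat no member was called in any comparison. The share of probes called was 0% in 569 minus WT, 0.0129% in 391 minus WT, 0.00214% in Box1 minus WT, 0% in KO minus WT and 0.0172% in KO minus 391. For genes, the shares in the 4 comparisons with WT were 0%, 0.0206%, 0.00515% and 0%. Unadjusted p under 0.05 was reached by 4178 probes in 569 minus WT and by 2912 in KO minus WT, the 2 comparisons with no limma call.

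Spink1 in fat had ratios of 1.02, 1.20 and 1.03 in 569 mice and 0.96, 0.99 and 0.76 in 391 mice. The ratios were 0.96, 2.90 and 1.0 in Box1 mice and 0.91, 0.95 and 1.21 in KO mice, against 0.93, 1.51 and 1.07 in WT mice. All mutant groups overlapped WT. The differences were -0.08, -0.35, 0.30 and -0.17 in 569, 391, Box1 and KO fat, with adjusted p of 0.9576, 1, 1 and 0.973, and the largest interval bound in either direction was -1.10. The arrays at 2.90 and 1.51 are those with hepatocyte transcripts. Without them, a choice made after seeing the data, the differences were 0.12, -0.15, -0.03 and 0.03, and none was called. The genes most like Spink1 over the fat arrays are expressed mainly in liver: Ugt3a2 (r = 0.953), Serpinf2 (0.952), Cyp2a12 (0.951), Proc (0.950) and Slc27a5 (0.950), among 2828 genes. Their Spearman correlations were 0.93 for Ugt3a2 and 0.65 to 0.74 for the others. Both arrays with hepatocyte transcripts enter these correlations.

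**Figure D5:**
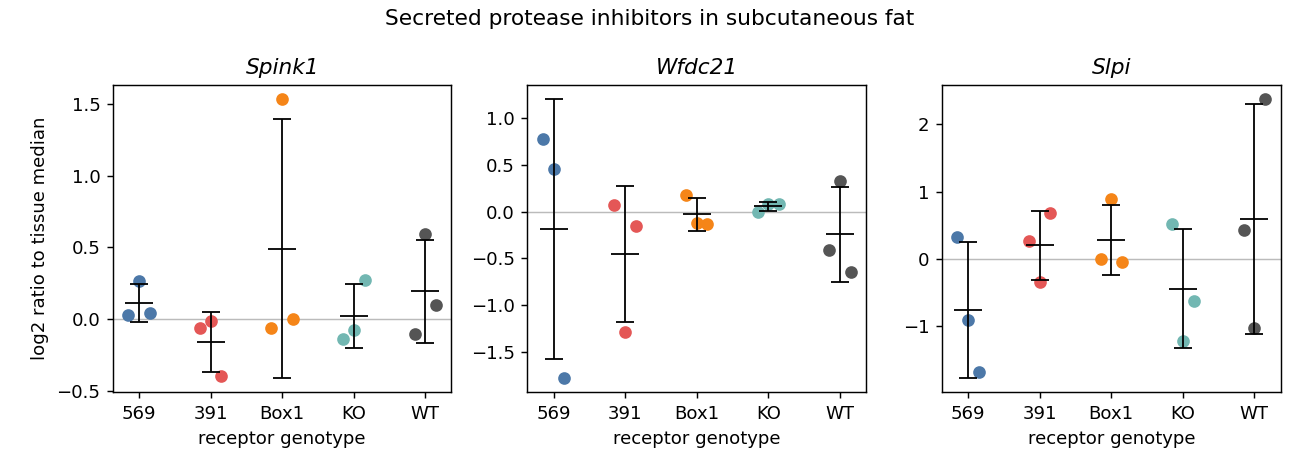
Log2 ratio to the fat median of Spink1, Wfdc21 and Slpi by receptor genotype. Each point is 1 array, with the mean and SD of 3 arrays in black, and the vertical scales differ between panels and from liver. No group separates from WT, and single arrays such as Box1 replicate 2 for Spink1 and WT replicate 3 for Slpi set the widest whiskers.

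Wfdc21 in fat had ratios of 1.71, 1.37 and 0.29 in 569 mice and 1.05, 0.41 and 0.90 in 391 mice. The ratios were 1.13, 0.92 and 0.91 in Box1 mice and 1.0, 1.06 and 1.06 in KO mice, against 0.75, 1.26 and 0.64 in WT mice. The KO arrays were the tightest and 569 spanned the whole range. The lowest array, 569 replicate 3 at 0.29, is that with low adipocyte and high muscle markers. The differences were 0.06 in 569, -0.21 in 391, 0.22 in Box1 and 0.30 in KO fat, each ± 0.55, with adjusted p of 0.9834, 1, 1 and 0.9709. The 95% interval of the KO difference was -0.90 to 1.5. Without 569 replicate 3 the 569 difference in Wfdc21 was 0.86 (adjusted p = 0.683). KO minus 391 was 0.51 (adjusted p = 0.9116). The genes most like it were Ednrb (r = 0.960), an endothelin receptor, Rhoj, Tmed3, Hsp90b1 and Sh3pxd2b.

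Slpi in fat varied widely within groups. It had ratios of 1.25, 0.53 and 0.31 in 569 mice and 1.20, 0.79 and 1.60 in 391 mice. The ratios were 1.0, 1.85 and 0.97 in Box1 mice and 1.43, 0.43 and 0.65 in KO mice, against 1.35, 0.49 and 5.20 in WT mice. WT replicate 3, at 5.20, lay above all 12 mutant arrays, and every mutant group overlapped the other WT arrays. The difference was -1.36 ± 0.76 in 569 fat (95% interval -3.01 to 0.30, limma adjusted p = 0.6084), -0.39 in 391, -0.31 in Box1 and -1.04 in KO fat (adjusted p = 1, 1 and 0.9062). WT replicate 3 decided the sign in 391 and Box1 fat, which without it were 0.50 and 0.58. Without both arrays with hepatocyte transcripts the 4 differences were -2.17, -1.21, -1.43 and -1.85, and none was called. The lowest Slpi array, 569 replicate 3 at 0.31, had the lowest sums of 10 macrophage markers (4.34, 7 of 10 more than 1 log2 unit below the median) and of 12 neutrophil markers (7.99). Without it the 569 difference was -0.89 (adjusted p = 0.855). The highest mutant array, Box1 replicate 2 at 1.85, had the highest neutrophil sum (20.67). Close to it were 569 replicate 1, with a neutrophil sum of 20.62 and the highest macrophage sum (14.49), and 391 replicate 1, with 19.92. Their Slpi ratios were 1.25 and 1.20. In WT replicate 3, at 5.20, the macrophage markers summed to 13.03 and the neutrophil markers to 14.15, inside the ranges over all fat arrays of 4.34 to 14.49 and 7.99 to 20.67. Over the groups the macrophage sums were 4.34 to 14.49 in 569, 7.90 to 12.24 in 391, 7.90 to 12.46 in Box1 and 8.61 to 10.45 in KO, against 7.81 to 13.03 in WT fat. The part of these cells in the Slpi values was not tested. The gene most like Slpi was Cybb, an oxidase subunit of phagocytes (r = 0.861).

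No member was called either without the 4 fat arrays with the highest muscle sums, a choice made after seeing the data that left 569 with 1 array, assumed to vary like the others. The differences in 569, 391, Box1 and KO fat were then 0.07, -0.35, 0.54 and -0.13 for Spink1, 0.70, -0.21, 0.27 and 0.28 for Wfdc21, and -1.51, -0.39, -0.15 and -0.65 for Slpi. None of the Kazal, WAP, other inhibitor, target protease, acute phase or STAT3 and NF-kB lists held a called gene in 569, 391, Box1 or KO fat.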

How the data were processed

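Per the labels' protocols, total RNA of frozen tissue, biotin-labelled, was hybridised to Illumina bead arrays. The deposited ratio was made by the authors by dividing each probe by its median over the 15 arrays of a tissue, as the values show: this median is 1 for all 46643 probes in both tissues, and array medians lie between 0.98 and 1.01. Background treatment, normalization and software are not given in the sources at hand, and detection of probes cannot be assessed from a ratio. Precision is limited by the 3 arrays of each group.

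Log2 ratios were fitted with limma 3.58.1 in R 4.3.3 (lmFit, contrasts.fit, eBayes), two-sided, with Benjamini-Hochberg adjustment over all probes, after a check on simulated data. No offset or filter was used. Of the probes, 32794 have 1 gene symbol, 55 several and 13794 none. Genes with several probes were read from their most variable probe (by SD) in that tissue.

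The members, lists and tests were chosen with earlier results of these data known. Named genes are the members, Igf1 and Ghr, up to 3 called genes per list and comparison with the largest difference, list members given in a clause of counts, and the 5 genes most correlated with a member among those with an SD of at least 0.5. Alternatives were quantile normalization, median centring, the compared groups alone, array weights, robust moderation, ratios of 0.01 set to 0.015, each array left out, and both 391 livers with pancreatic transcripts left out. Leaving out both fat arrays with hepatocyte transcripts, or the 4 with most muscle transcripts, was added after seeing the data. Replicate numbers follow accession order.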

Additional observations from a re-analysis of the deposited data

Results flagged for a closer look

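In 3 cases every array of a mutant group lay on one side of the WT mean in liver and on the other side in fat; the difference between tissues was not tested. Spink1 in 391 mice differed from WT by 5.14 in liver and by -0.35 in fat. Wfdc21 in Box1 mice differed by -5.37 in liver and by 0.22 in fat. Wfdc21 in KO mice differed by -3.20 in liver and by 0.30 in fat. The liver values are those the genes were chosen by, and the fat values overlapped WT.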

How the results depend on the processing

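Quantile normalization gave the differences from WT in liver as -0.033 in 569, 3.54 in 391, 3.51 in Box1 and 2.77 in KO for Spink1, and as 0.67 in 569 and -4.96 in 391 for Wfdc21. It gave 3.21 for Wfdc21 in KO minus Box1, which then passed (adjusted p = 0.0223). Without both 391 livers with pancreatic transcripts, the 391 difference was 4.47 for Spink1 and -0.25 for Slpi, and Spink1 in 391 minus Box1 was -0.41. In fat, array weights gave Spink1 0.039 in 569. Without both fat arrays with hepatocyte transcripts, Spink1 was 0.12 in 569, -0.026 in Box1 and 0.025 in KO, and Wfdc21 was 0.073 in 391. Without the 4 fat arrays with the highest muscle sums, also chosen after seeing the data, Spink1 was 0.067 in 569. None of these fat values was called, and the cause of the changes was not tested.

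Over the refits that left out 1 array, the liver differences from WT for 569, 391, Box1 and KO were 0.24 to 0.48, 4.68 to 5.48, 4.77 to 4.97 and 3.93 to 4.59 for Spink1. For Wfdc21 they were 0.24 to 0.53, -5.56 to -5.13, -5.73 to -5.10 and -3.94 to -2.65. For Slpi they were -0.55 to -0.10, -0.12 to 0.17, -0.53 to -0.26 and -0.64 to -0.39. KO minus 391 ranged over -1.27 to -0.47 for Spink1, 1.40 to 2.68 for Wfdc21 and -0.66 to -0.38 for Slpi. KO minus Box1 ranged over -0.95 to -0.29, 1.43 to 2.71 and -0.23 to -0.04 for the same genes, and 391 minus Box1 over -0.21 to 0.59, -0.23 to 0.40 and 0.27 to 0.55. In fat the ranges in 569, 391, Box1, KO and KO minus 391 were -0.23 to 0.12, -0.50 to -0.15, -0.23 to 0.57, -0.32 to 0.025 and 0.05 to 0.26 for Spink1. They were -0.42 to 0.86, -0.48 to 0.20, 0.01 to 0.50, 0.10 to 0.59 and 0.10 to 0.78 for Wfdc21. For Slpi they were -2.17 to -0.46, -1.21 to 0.50, -1.13 to 0.58, -1.85 to -0.14 and -1.12 to -0.25.

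The genes called over the 6 lists in liver numbered 0 in 569, 16 in 391, 13 in Box1 and 14 in KO. In 569 they numbered 1 with median centring, array weights or robust moderation and 3 without both 391 livers with pancreatic transcripts, which changed the pooled spread. In 391 they numbered 7, and in Box1 23, when the compared groups alone were fitted. In Box1 they numbered 20 without both of those 391 livers. Without 1 array they numbered 0 to 3 in 569, 10 to 20 in 391, 9 to 11 in Box1 and 9 to 10 in KO. Of 30 named list results, 13 lost their call in at least 1 such refit. In the main fit the shares called up over all genes were 0% in 569, 2.47% in 391, 1.62% in Box1 and 2.43% in KO livers. Those called down were 0.0155%, 0.711%, 0.484% and 0.871%. Shares over all genes under the refits are not given, so a moved count need not be particular to the lists. In fat the lists held 0 called genes under each setting run. Other probes could not be tried for the members, since each has 1. No paired analysis was possible because the labels give no replicate numbers. Signal over background, unknown in a ratio, limits how the lowest values can be read.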
